A study of Mus musculus with 20 samples.

Results

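The keratins of liver epithelium were followed in mice with a liver knockout of OGT, the O-GlcNAc transferase, which attaches N-acetylglucosamine to serines and threonines of intracellular proteins. The 6 members were Krt8, Krt18, Krt20, Krt7, Krt19 and Krt23, chosen by symbol among the 19505 named genes of the array, and all 6 were present, each with 1 feature. RNA of whole liver was measured on 20 Clariom S Mouse arrays in 4 groups of 5: livers labelled OGTL KO at 4 weeks of age, OGTL WT at 4 weeks, OGTL KO at 8 weeks and OGTL WT at 8 weeks. The series text gives 5 mice per group. The sources used here do not give how the allele was built, which promoter drives the deletion, or the sex and strain of the animals. Values are log2 signals as the authors deposited them, and differences between groups are log2 differences of group means, on which 1 unit is a doubling.

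Keratins form filaments only as pairs of a type I and a type II protein. Hepatocytes build theirs from KRT8 (type II) and KRT18 (type I), while the epithelium of bile ducts adds KRT7 (type II) and KRT19 (type I). KRT20 and KRT23 are type I keratins; KRT20 is best known from intestinal epithelium and urothelium, and KRT23 has been described in the ductular reaction of injured liver. KRT8 and KRT18 are themselves modified by O-GlcNAc, and together with the autophagy adaptor p62 they make up the inclusions called Mallory-Denk bodies in stressed hepatocytes.

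The genes lie in both keratin clusters of the mouse genome. In the RefSeq annotation of GRCm38.p6, Krt8 and Krt18 are direct neighbours on chromosome 15, with 0 protein-coding genes between them, and Krt7 lies on the same chromosome with 23 between it and Krt8. Krt20 and Krt23 are direct neighbours on chromosome 11, which also carries Krt19. RefSeq promoter windows (250 bases before to 50 after the annotated start) were matched for 5 of the 6 members, and Krt19 had no entry. The windows of the 4 members that were called different between KO and WT and had an entry are shown, because Krt8, Krt18 and Krt20 were called at 4 weeks and Krt7 at 8 weeks. They are Krt8 at chr15:102004293-102004592 (minus strand), Krt18 at chr15:102027966-102028265 (plus), Krt20 at chr11:99438104-99438403 (minus) and Krt7 at chr15:101412153-101412452 (plus), all 5′ to 3′ along the gene. Capitals mark matches to any of 5 motifs searched on both strands: the TATA box (TATAAA), the AP-1 motif (TGANTCA), the GC box (GGGCGG), the CCAAT box (CCAAT) and the RBPJ motif of the Notch pathway (GTGGGAA).
Krt8: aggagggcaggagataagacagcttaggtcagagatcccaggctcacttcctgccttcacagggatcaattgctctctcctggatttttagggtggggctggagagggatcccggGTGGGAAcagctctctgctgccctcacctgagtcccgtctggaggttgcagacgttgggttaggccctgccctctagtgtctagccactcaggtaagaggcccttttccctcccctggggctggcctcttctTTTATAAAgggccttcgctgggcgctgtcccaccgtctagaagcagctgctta
Krt18: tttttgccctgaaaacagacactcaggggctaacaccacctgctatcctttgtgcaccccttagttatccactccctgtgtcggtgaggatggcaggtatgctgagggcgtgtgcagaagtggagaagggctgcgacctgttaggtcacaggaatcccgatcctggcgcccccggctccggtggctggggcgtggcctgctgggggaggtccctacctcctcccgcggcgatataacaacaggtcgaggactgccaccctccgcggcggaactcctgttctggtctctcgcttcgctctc
Krt20: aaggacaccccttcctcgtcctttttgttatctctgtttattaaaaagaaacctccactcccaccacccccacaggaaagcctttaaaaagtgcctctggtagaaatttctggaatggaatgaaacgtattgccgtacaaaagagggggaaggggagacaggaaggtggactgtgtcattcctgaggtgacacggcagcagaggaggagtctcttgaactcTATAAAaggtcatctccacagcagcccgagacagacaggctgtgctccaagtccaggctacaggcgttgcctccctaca
Krt7: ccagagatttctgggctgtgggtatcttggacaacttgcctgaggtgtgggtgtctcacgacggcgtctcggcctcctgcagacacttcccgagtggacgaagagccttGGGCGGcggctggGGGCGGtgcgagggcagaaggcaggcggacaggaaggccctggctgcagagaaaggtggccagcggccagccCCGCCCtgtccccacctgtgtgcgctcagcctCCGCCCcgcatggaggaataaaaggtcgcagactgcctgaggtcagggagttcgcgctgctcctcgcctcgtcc
The Krt8 window held 3 matches, namely an RBPJ motif and overlapping TATA box matches on both strands at the annotated start. The Krt20 window held 1 TATA box and the Krt7 window 4 GC boxes, on both strands, while Krt18 and Krt23 had 0 matches. Of the 32851 promoter windows in the RefSeq table, 13.62% held a TATA box, 7.81% an AP-1 motif, 35.66% a GC box, 37.41% a CCAAT box and 6.38% an RBPJ motif. No motif occurred in more than 1 of these windows other than the TATA box, which Krt8 and Krt20 had.

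Ogt, the targeted gene, had signals of 7.37, 8.30, 8.13, 8.84 and 8.07 in KO livers at 4 weeks, against 9.37, 9.87, 9.83, 9.65 and 9.14 in WT livers. At 8 weeks it was 9.86, 10.01, 9.65, 10 and 9.55 in livers labelled KO, against 9.84, 10.12, 9.92, 10.33 and 10.19 in WT livers. The groups did not overlap at 4 weeks, while at 8 weeks they overlapped and Ogt was not called different (difference -0.27, limma adjusted p = 0.529). The sources used here do not say where in Ogt the array feature lies relative to the deletion. Some arrays had raised signals of genes typical of other tissues, and the source of these signals was not tested. The mean over 15 skeletal muscle genes was 11.35 to 13.58 in 3 arrays at 4 weeks (KO replicates 4 and 5, WT replicate 4) and 4.35 to 5.84 in the other 17. Cdh17, an intestinal cadherin, was 7.33 in KO replicate 3 and 6.86 and 7.36 in WT replicates 3 and 4 at 4 weeks, and 6.30 in KO replicate 5 at 8 weeks, against a median of 4.6 over the 20 arrays. The results were recomputed without the 3 muscle arrays, and, as a choice made after these values were seen, without the 4 Cdh17 arrays and without the 6 arrays in either class. A background level, 5.02 to 5.20 by group, was set from 1412 olfactory and vomeronasal receptor genes; where a group mean lay at or below it, a difference is a lower limit, written "at least". The 19 measured hepatocyte markers were above background in every group, and of 18 cholangiocyte markers 12 were above it in KO and 12 in WT at 4 weeks, and 15 in livers labelled KO and 9 in WT at 8 weeks.

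At 4 weeks the hepatocyte pair Krt8 and Krt18 and the intestinal-type keratin Krt20 were higher in KO liver, while the biliary pair Krt7 and Krt19 and Krt23 were not called. At 8 weeks the biliary pair was higher in livers labelled KO, Krt8 was still called higher, and Krt18, Krt20 and Krt23 were not called. A gene was called at a Benjamini-Hochberg adjusted p below 0.05 over all 19505 genes in a limma fit of the 4 groups. That gave 3 of 6 keratins higher and 0 lower at 4 weeks, against 4.70% of all genes called higher, and 3 of 6 higher and 0 lower at 8 weeks, against 4.94% of all genes. The median difference of the 6 was 1.17 at 4 weeks and 1.08 at 8 weeks, against 0.00 and -0.04 over all genes tested. The samples are mice, so these p-values cover the spread between animals and its measurement. In whole liver, more cells of a type and more RNA per cell cannot be told apart.

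**Figure D1:**
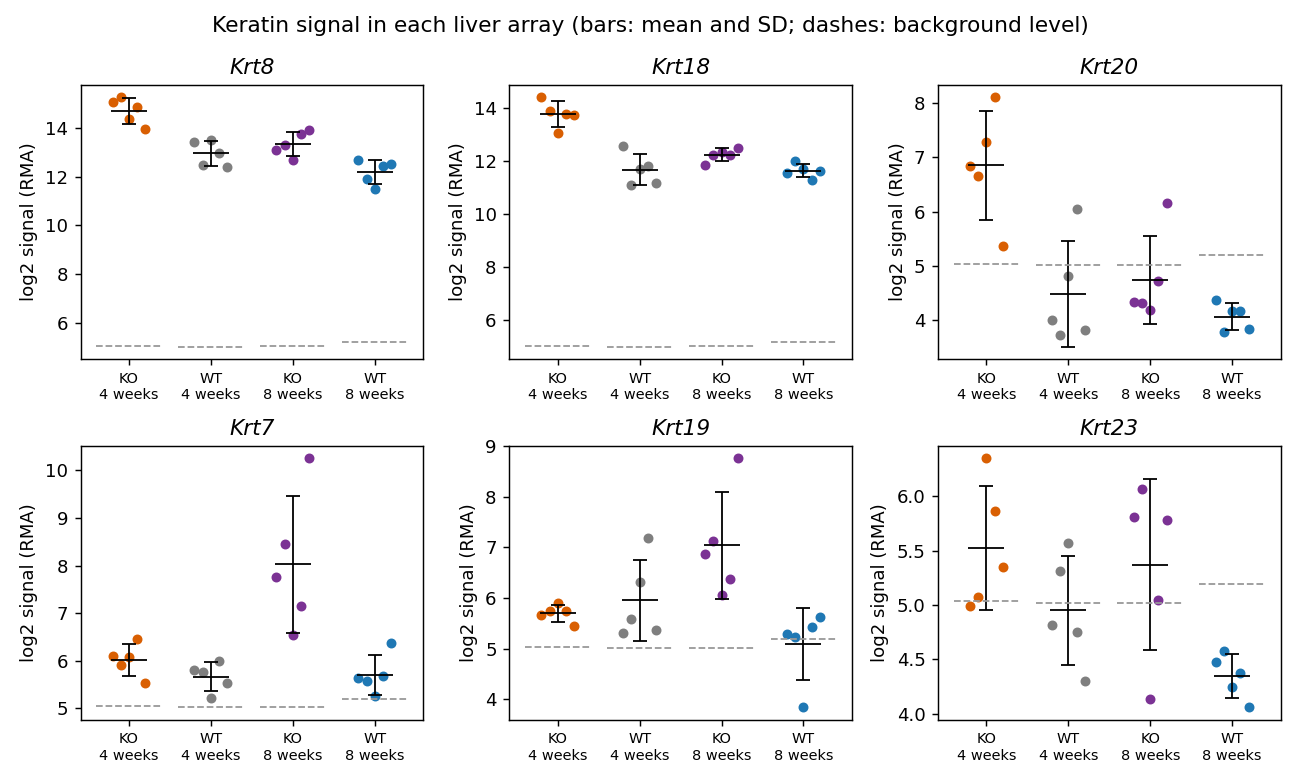
Log2 signal (y axis) of each keratin in each array, in KO and WT livers at 4 weeks and at 8 weeks (x axis); points are arrays, horizontal bars the mean, error bars the SD of 5 arrays, and dashes the background level of the group. Krt8, Krt18 and Krt20 are highest in KO livers at 4 weeks, and Krt7 and Krt19 in livers labelled KO at 8 weeks.

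Krt8, the type II keratin of hepatocytes, had signals of 15.06, 15.26, 14.39, 14.88 and 13.96 in KO livers at 4 weeks, against 13.44, 12.49, 13.49, 12.97 and 12.38 in WT livers. Every KO array lay above every WT array, as was the case with higher KO values for 4.06% of all genes. The difference was 1.76 (SE 0.29), a 3.38-fold rise (limma adjusted p = 4.55e-04). The two-sided exact permutation p was 0.00794, the smallest that 5 against 5 arrays allow. Krt18, its type I partner, had signals of 14.39, 13.89, 13.06, 13.77 and 13.72 in KO livers at 4 weeks, against 12.56, 11.10, 11.71, 11.80 and 11.16 in WT livers. These groups did not overlap either, and the rise was 2.10 (SE 0.24), or 4.29-fold (limma adjusted p = 1.08e-05, exact p = 0.00794). Since each partner is stable as protein only with the other, it was asked whether the transcripts changed equally. Within arrays, Krt18 minus Krt8 was -0.94 ± 0.48 in KO and -1.29 ± 0.33 in WT livers at 4 weeks (SD, n = 5 each), a shift of 0.34 with an exact permutation p of 0.222 (0.222 adjusted over the 2 ages). An unequal change of the pair was therefore not detectable at 4 weeks with 5 arrays a group. Without the 6 arrays with high muscle genes or high Cdh17 the rises were 2.39 for Krt8 (limma adjusted p = 0.00124) and 2.53 for Krt18 (4.32e-04).

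Krt20 went with the hepatocyte pair at 4 weeks. Its signals were 6.85, 6.66, 7.28, 8.11 and 5.36 in KO livers, against 4.00, 3.73, 4.81, 6.05 and 3.82 in WT livers. The groups overlapped through the lowest KO array, replicate 5, and the highest WT array, replicate 4, while the other WT arrays lay below background. The difference was 2.37 (SE 0.46, limma adjusted p = 0.0017, exact permutation p = 0.0159). As the WT mean of 4.48 ± 0.98 was not above background, the rise to 6.85 ± 1.004 in KO (SD, n = 5 each) was at least 1.84, or at least 3.57-fold. The WT arrays with the highest Krt20, replicates 4 and 3, were also those with high Cdh17 and with high signals of the intestinal mucin gene Muc2 (12.63 and 10.23, against 4.32 to 4.86 in the other 3 WT arrays). Among KO arrays Cdh17 was high in replicate 3 only, in which Muc2 was 5.46 (4.24 to 4.64 in the other 4 KO arrays). Over the whole intestinal and stomach list the mean of 14 genes was 5.40 to 6.36 in KO arrays and 5.33 to 6.55 in WT arrays, 6 of 14 genes were above background in KO and 8 of 14 in WT, and Cdx2, the transcription factor that defines intestinal epithelium, was at 3.42 to 3.83 in KO and 3.81 to 4.01 in WT, below background. Cdx2 was at 3.81 and 3.84 in WT replicates 3 and 4 as well, the arrays with high Muc2. Its signal therefore does not tell arrays with high intestinal genes from the others. Without the 4 arrays with high Cdh17 the Krt20 difference was 2.895 (limma adjusted p = 3.03e-04), and without the 6 arrays with high muscle genes or high Cdh17 it was 2.91 (2.27e-06).

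**Figure D2:**
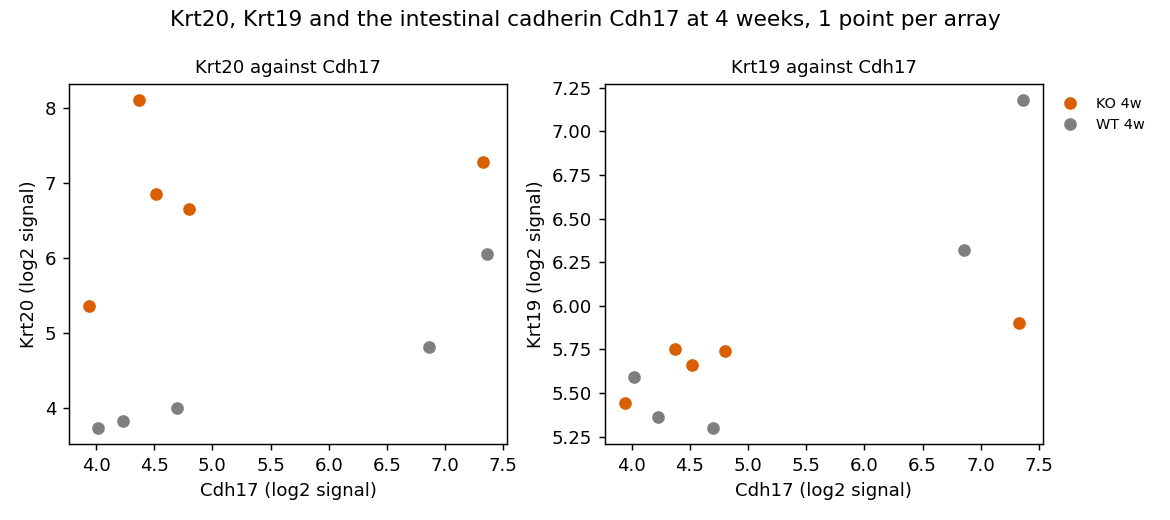
Krt20 (left) and Krt19 (right) on the y axes against the intestinal cadherin Cdh17 on the x axes, as log2 signals, with 1 point per array for KO and WT livers at 4 weeks. The WT arrays with Cdh17 of 6.86 and 7.36 have the highest Krt19 and Krt20 of their group, while 4 of 5 KO arrays have Krt20 of 6.66 or more, 3 of them at Cdh17 of 4.37 to 4.80.

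The biliary keratins were not called at 4 weeks. Krt7 was 6.09, 5.91, 6.07, 6.46 and 5.52 in KO livers, against 5.81, 5.75, 5.22, 6.0 and 5.53 in WT livers, a difference of 0.35 (95% interval -0.58 to 1.28, limma adjusted p = 0.726). Krt19 was 5.66, 5.74, 5.90, 5.75 and 5.44 in KO livers, against 5.30, 5.59, 6.32, 7.18 and 5.36 in WT livers, a difference of -0.25 (95% interval -1.15 to 0.65, limma adjusted p = 0.806). The KO arrays lay close together, and the highest WT values were those of replicates 3 and 4, the arrays with high Cdh17 and Muc2. Without the 4 arrays with high Cdh17 the sign of the Krt19 difference turned (0.23, limma adjusted p = 0.771). Krt23 was 4.99, 5.07, 6.35, 5.86 and 5.35 in KO livers, against 4.82, 5.31, 5.57, 4.75 and 4.30 in WT livers. Its groups overlapped, the WT mean was not above background, and the difference of 0.57 had a limma adjusted p of 0.307.

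At 8 weeks Krt7, the type II keratin of bile ducts, had signals of 7.75, 8.45, 6.53, 7.14 and 10.26 in livers labelled KO, against 5.63, 5.56, 5.25, 5.67 and 6.37 in WT livers. All livers labelled KO lay above all WT livers, as with higher KO values for 4.13% of genes, although replicate 3 (6.53) lay close to the highest WT array (6.37). The rise was 2.33 (SE 0.44), or 5.03-fold (limma adjusted p = 0.00182, exact permutation p = 0.00794). Krt19, its type I partner, had signals of 6.87, 7.13, 6.05, 6.37 and 8.76 in livers labelled KO, against 5.29, 5.23, 3.84, 5.42 and 5.63 in WT livers. These groups did not overlap, and the difference was 1.95 (SE 0.42, limma adjusted p = 0.0057, exact p = 0.00794). The WT mean of 5.08 ± 0.71 was not above background, so the rise to 7.04 ± 1.05 in livers labelled KO (SD, n = 5 each) was at least 1.84, or at least 3.58-fold. Within arrays, Krt19 minus Krt7 was -0.99 ± 0.42 in livers labelled KO and -0.61 ± 0.48 in WT livers at 8 weeks (SD, n = 5 each), a shift of -0.38 (exact permutation p = 0.19, adjusted over the 2 ages 0.214). At 4 weeks that measure was -0.31 ± 0.26 in KO and 0.29 ± 0.79 in WT livers, a shift of -0.60 (exact p = 0.214, adjusted 0.214). Since Krt19 was not above background in WT livers at 8 weeks, its change there is a lower limit and the shift at that age does not show whether the pair changed equally. At 4 weeks an unequal change was not detectable with 5 arrays a group. The calls of Krt7 and Krt19 at 8 weeks, and those of Krt8, Krt18 and Krt20 at 4 weeks, held in each of the 20 fits that left out 1 array.

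The livers labelled KO at 8 weeks differed widely among themselves in the biliary pair. Replicate 5 was highest and replicate 3 lowest, and the order of the 5 livers from high to low (5, 2, 1, 4, 3) was identical for Krt7, for Krt19 and for Epcam, which encodes an adhesion molecule of biliary epithelium. Epcam was 8.83, 9.61, 7.5, 8.36 and 10.74 in livers labelled KO, against 4.22, 5.15, 4.35, 5.41 and 5.91 in WT livers. Tspan8, another epithelial surface gene, had the same order, with 13.06 in replicate 5 and 9.28 in replicate 3. Of the other genes ranked, Sox9, a transcription factor gene of bile duct cells, had the order 1, 2, 5, 3, 4 and the cadherin gene Cdh1 the order 5, 2, 3, 1, 4, so the order was not common to all epithelial genes examined. Replicate 5 was also the array with Cdh17 of 6.30, and in the fit without the 4 Cdh17 arrays, which leaves it out, the differences at 8 weeks were 1.77 for Krt7 (limma adjusted p = 0.00193) and 1.52 for Krt19 (0.00422).

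**Figure D3:**
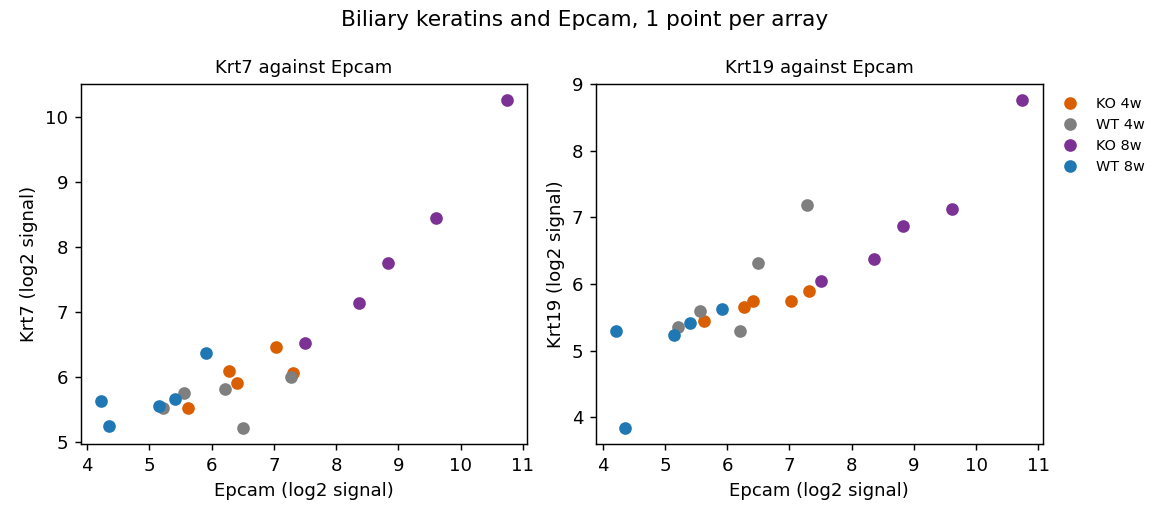
Krt7 (left) and Krt19 (right) on the y axes against Epcam on the x axes, as log2 signals, with 1 point per array for the 20 arrays in 4 groups. The 5 livers labelled KO at 8 weeks follow the same order on both axes, with Epcam at 7.5 to 10.74 and Krt7 at 6.53 to 10.26.

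The cholangiocyte list, which holds no keratin, gave the setting of the biliary pair. Of 18 measured genes 11 were higher, 0 lower and 7 not called at 8 weeks (median difference 1.52, against -0.04 over all genes), and 2 were higher, 0 lower and 16 not called at 4 weeks (median 0.32, against 0.00). Bicc1, an RNA-binding protein gene of ductal epithelium, was 11.03 ± 1.13 in livers labelled KO and 7.19 ± 0.27 in WT at 8 weeks (SD, n = 5 each; limma adjusted p = 1.62e-06), and Pkhd1, the gene of fibrocystin in the primary cilium of duct cells, was 8.96 ± 1.09 and 5.14 ± 0.28, the WT mean not being above background (adjusted p = 2.72e-06). The 2 genes called at 4 weeks were Wfdc2, a secreted protease inhibitor gene (1.19, limma adjusted p = 0.00125), and Tspan8 (2.51, adjusted p = 0.0177). The mean of the 18 genes was 7.06 to 8.84 in livers labelled KO and 5.47 to 6.19 in WT livers at 8 weeks, and their part in the Krt7 and Krt19 differences was not tested. Of 19 hepatocyte markers 0 were higher and 1 lower at 4 weeks, the P450 gene Cyp2e1 (-0.60, limma adjusted p = 0.012), and 0 were called at 8 weeks. The hepatocyte marker mean was 17.19 to 17.46 in KO and 17.57 to 17.77 in WT livers at 4 weeks. These means lie above 16, in the range of values whose origin is not known, and whether signals there are compressed was not tested.

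The Krt8 and Krt18 differences from WT were smaller at 8 weeks than at 4 weeks. That change with age was called for Krt18 (-1.502, limma adjusted p = 0.0208) but not for Krt8 (-0.62, 0.511). Krt8 was 13.08, 13.29, 12.67, 13.74 and 13.91 in livers labelled KO, against 12.68, 11.89, 11.50, 12.44 and 12.52 in WT livers. The groups met only in the lowest liver labelled KO and the highest WT liver, at 12.67 and 12.68, and the rise was 1.13 (SE 0.29), or 2.19-fold (limma adjusted p = 0.0206, exact permutation p = 0.0159). That call was lost without WT replicate 2 (1.05, adjusted p = 0.0564), WT replicate 3 (0.96, 0.0713), KO replicate 4 (1.03, 0.0522) or KO replicate 5 (0.99, 0.0676), all at 8 weeks, and without the 4 arrays with high Cdh17 (0.99, 0.0773). Without the 6 arrays with high muscle genes or high Cdh17 the Krt8 difference was also 0.99, with a limma adjusted p of 0.0441. Krt18 was 11.84, 12.23, 12.35, 12.22 and 12.49 in livers labelled KO, against 11.56, 11.98, 11.69, 11.30 and 11.61 in WT livers. Only KO replicate 1 fell within the WT range, and the difference of 0.60 (95% interval 0.08 to 1.12, exact permutation p = 0.0159) was not called over all genes (limma adjusted p = 0.171). It passed when the 8-week groups were fitted alone (adjusted p = 0.0463). Within arrays Krt18 minus Krt8 was -1.11 ± 0.48 in livers labelled KO and -0.58 ± 0.66 in WT livers (SD, n = 5 each), a shift of -0.53 with an exact permutation p of 0.183 (adjusted 0.222).

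Krt20 was close to background at 8 weeks in both genotypes, at 4.33, 4.32, 4.18, 4.71 and 6.16 in livers labelled KO, against 4.36, 3.78, 4.16, 4.16 and 3.84 in WT livers. KO replicate 5 alone was above background, and both means were below it, so no fold is given (limma adjusted p = 0.456). Krt23 was 5.81, 6.07, 4.14, 5.05 and 5.78 in livers labelled KO, against 4.48, 4.58, 4.25, 4.38 and 4.06 in WT livers. All WT livers were below background, 4 of 5 livers labelled KO were above theirs, and KO replicate 3, the array lowest in Krt7 and Krt19, was also lowest here. The Krt23 difference of 1.02 (SE 0.32, at least 0.17) missed the threshold with a limma adjusted p of 0.0589 (exact permutation p = 0.0397). It passed without KO replicate 3 at 8 weeks (1.33, adjusted p = 0.00391) and without KO replicate 3 at 4 weeks (1.02, adjusted p = 0.045). Those were the only 2 of the 20 fits leaving out 1 array in which it passed. Without KO replicate 2 at 8 weeks it was 0.845 (limma adjusted p = 0.167), and with values raised to background it was 0.49 (0.344).

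**Figure D4:**
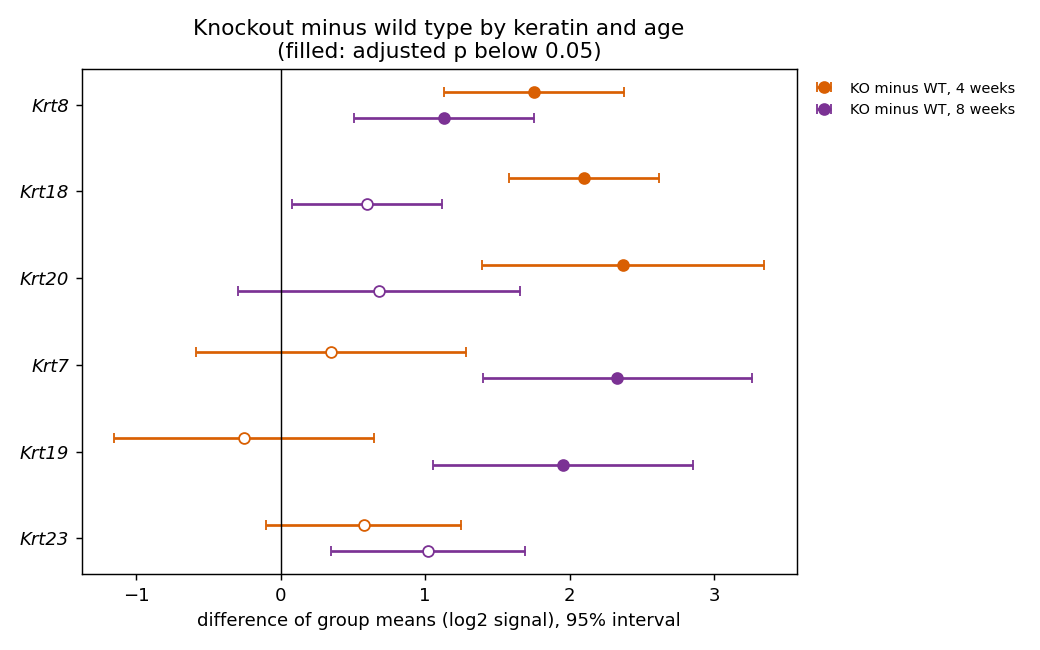
KO minus WT difference in log2 signal (x axis) for each keratin (y axis) at 4 and at 8 weeks; points are differences of group means and bars 95% intervals with 16 residual degrees of freedom, filled where the adjusted p over all genes was below 0.05. Krt8, Krt18 and Krt20 are filled at 4 weeks, and Krt8, Krt7 and Krt19 at 8 weeks.

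Whether the knockout effect itself changed with age was tested as an interaction, the effect at 8 weeks minus that at 4 weeks, in the same fit. It was called for 2 of 6 keratins, against 3.05% of all genes in either direction. For Krt18 the effect was 0.60 at 8 weeks and 2.10 at 4 weeks, so it fell by 1.502 (SE 0.35, limma adjusted p = 0.0208), and this stayed below the threshold on leaving out any 1 of the 20 arrays (0.00394 to 0.0442). For Krt19 the effect was 1.95 at 8 weeks and -0.25 at 4 weeks, a rise of 2.21 (SE 0.60, limma adjusted p = 0.0481). That call lay close to the threshold and was lost without any of 15 of the 20 arrays. Over the 20 fits that left out 1 array the change was 1.775 to 2.4525. Since the Krt19 mean of WT at 8 weeks was not above background, these fitted values do not give the size of the change. With values raised to background the Krt19 change was 1.96 (limma adjusted p = 0.11). Without the 4 Cdh17 arrays the change was 1.29 with an adjusted p of 0.188 (1.83 and 0.131 without the 3 muscle arrays). For Krt7 the effect was 2.33 at 8 weeks and 0.35 at 4 weeks, and the change of 1.98 (SE 0.62) had an adjusted p of 0.0901; it was called without KO replicate 3 at 8 weeks (2.36, adjusted p = 0.0217). For Krt20 the change of -1.69 had a limma adjusted p of 0.185, and it was called without the 3 muscle arrays (-2.16, 0.0194), without the 4 Cdh17 arrays (-2.57, 0.0253) and without all 6 (-2.58, 1.48e-04). Since 3 of the 4 Krt20 group means were not above background, these fitted values do not give the size of the change, and with values raised to background it was -1.37 (adjusted p = 0.243). Krt8 (-0.62, limma adjusted p = 0.511) and Krt23 (0.45, 0.698) were not called.

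Within the livers labelled KO, the hepatocyte pair and Krt20 fell with age, while the biliary pair rose. At 8 weeks against 4 weeks, 2 of 6 were higher and 3 of 6 lower, against 7.85% and 6.78% of all genes. Krt8 fell by 1.37 (limma adjusted p = 0.0026) and Krt18 by 1.54 (1.61e-04), to 13.34 ± 0.50 and 12.23 ± 0.24 at 8 weeks, against 14.71 ± 0.53 and 13.77 ± 0.48 at 4 weeks (SD, n = 5 each). Krt20 fell by 2.11 (limma adjusted p = 0.00296), by at least 1.83 because its 8-week mean was not above background. Krt7 rose by 2.02 (limma adjusted p = 0.00297), to 8.03 ± 1.44 at 8 weeks, against 6.01 ± 0.34 at 4 weeks. Krt19 rose by 1.34 (limma adjusted p = 0.0374), a call that was lost without any of 8 arrays of the livers labelled KO (adjusted p up to 0.101) and without the 3 muscle arrays (0.0795), and Krt23 was not called (-0.15, 0.821). In these comparisons the ranges of Krt8, Krt18, Krt7 and Krt19 did not overlap between the ages, as for 9.47% of all genes. In WT livers 0 of 6 keratins were called between the ages by limma, against 8.94% of all genes, and before adjustment 1 of 6, Krt8 (-0.75), passed 0.05 by limma. The unadjusted exact permutation p was 0.0714 for Krt8 and 0.0397 for Krt23, whose WT means were at background at both ages. These age comparisons use the same arrays as the KO against WT comparisons and are not separate evidence.

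Over the 4 groups Krt8 means ran from high to low as KO at 4 weeks (14.71), livers labelled KO at 8 weeks (13.34), WT at 4 weeks (12.95) and WT at 8 weeks (12.21), and the last 3 overlapped with their neighbours. Krt18 had the same first 2 places, its livers labelled KO at 8 weeks overlapped with WT at 4 weeks, and its WT means of 11.67 at 4 weeks and 11.63 at 8 weeks overlapped. Krt7 was highest in livers labelled KO at 8 weeks (8.03), and the other 3 groups, at 5.66 to 6.01, overlapped. Krt19 was highest in the same livers (7.04), followed by WT at 4 weeks (5.95), whose range it overlapped, by KO at 4 weeks (5.70) and by WT at 8 weeks (5.08), each overlapping with its neighbour. Krt20 stood at 6.85 in KO at 4 weeks and at 4.06 to 4.74 in the other groups, all 3 not above background. Krt23 stood at 5.52 in KO at 4 weeks, 5.37 in livers labelled KO at 8 weeks and 4.95 and 4.35 in WT at 4 and 8 weeks, and each neighbouring pair overlapped.

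The genes with the most similar pattern were found by the root mean square difference from a keratin over the 20 arrays, after each gene was centred on its own mean. Closest to Krt8 were the necroptosis effector gene Mlkl (0.44 log2 units), the quinone reductase gene Nqo1 (0.44), Neto2 (0.46) and Uap1l1 (0.47), whereas Krt18 was at 0.52 and the spread of Krt8 itself around its mean was 1.02. Closest to Krt18 were the UDP-glucose dehydrogenase gene Ugdh (0.42), the interferon-induced kinase gene Eif2ak2 (0.42), the arginyl-tRNA synthetase gene Rars (0.46) and the class I histocompatibility gene H2-Q4 (0.46), with its own spread at 0.94. Closest to Krt20 were the matrix gene Npnt (0.55), Trmt10a (0.61), the TWEAK receptor gene Tnfrsf12a (0.65) and the protease gene Tmprss2 (0.65), against a spread of 1.30, and Krt8 was the nearest keratin at 0.71. Closest to Krt7 were the chloride channel family gene Clic6 (0.30), Plet1 (0.36), the fibulin gene Efemp1 (0.38) and the adhesion receptor gene Adgrg1 (0.38), against a spread of 1.20, with Krt19 the nearest keratin at 0.66. Closest to Krt19 were Slc25a36 and Mboat1 (0.49 each), Plp2 and Pof1b (0.50 each), against a spread of 0.98, with Krt7 at 0.66. Pof1b was not above background in any group and Mboat1 only in livers labelled KO at 8 weeks, so their distances describe signals at or near background. Clic6 and Npnt were not above background in WT livers at either age, nor Neto2 in WT livers at 8 weeks. Krt20 itself was above background only in KO at 4 weeks. These distances therefore also rest in part on signals near background. All arrays enter each of these distances, so they follow the differences between groups.

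The other keratins measured were mostly at background. Of 31 other keratins measured, 27 were not above background in any group, 0 were called higher and 1 lower at 4 weeks, and 0 were called at 8 weeks by limma. The gene called at 4 weeks was Krt2, named here because it was the single call, and its means of 3.97 in KO and 4.48 in WT were not above background. The epidermal basal keratins Krt5 and Krt14 stayed below background in the 4 groups. Among 17 genes of desmosomes and keratin linkers, 1 was higher and 1 lower at each age. Over all genes 4.70% were called higher at 4 weeks and 4.94% at 8 weeks. The medians of the 17 were 0.05 at 4 weeks and 0.06 at 8 weeks, against 0.00 and -0.04 over all genes. At 4 weeks these were Ppl, the gene of the linker periplakin (5.77 ± 0.21 in KO and 4.92 ± 0.47 in WT, at least 0.76, limma adjusted p = 0.0198), and the desmosomal cadherin gene Dsg2 (11.25 ± 0.27 in KO and 12.08 ± 0.15 in WT, adjusted p = 0.00249). At 8 weeks they were Dst, the gene of the linker dystonin (difference 1.40, at least 0.30, limma adjusted p = 0.0272), and Tchp, the gene of the keratin-binding protein trichoplein (-0.63, 0.00803). Of 16 other intermediate filament genes 0 were called at 4 weeks and 1 higher at 8 weeks. It was vimentin (Vim), the filament of mesenchymal cells, at 10.06 ± 0.97 in livers labelled KO and 7.61 ± 0.54 in WT (SD, n = 5 each; difference 2.45, limma adjusted p = 0.0021).

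Genes tied to keratin inclusions were read beside Krt8 and Krt18. Of 12 measured inclusion and chaperone genes 2 were higher, 0 lower and 10 not called at 4 weeks, with a median of 0.29 (0.00 over all genes), and 1 was higher and 1 lower at 8 weeks, with a median of -0.08 (-0.04 over all genes). At 4 weeks the list mean was 10.18 and 10.39 in KO replicates 4 and 5, both muscle arrays. It was 9.46, 9.75 and 9.63 in KO replicates 1, 2 and 3. In WT it was 9.56 in replicate 4, a muscle array, and 9.53, 9.05, 9.13 and 9.07 in replicates 1, 2, 3 and 5. The part of the muscle arrays in the 4-week values of this list was not tested. Sqstm1, which encodes p62, was 14.28 ± 0.48 in KO and 13.16 ± 0.23 in WT livers at 4 weeks (SD, n = 5 each), a rise of 1.12 (limma adjusted p = 9.54e-04). Hspb1, the gene of the small heat shock protein HSP27, was 7.43 ± 0.67 in KO and 4.34 ± 1.05 in WT livers at 4 weeks, a rise of at least 2.42 (limma adjusted p = 1.11e-04). The genes called at 8 weeks were the transglutaminase gene Tgm2 (0.97, limma adjusted p = 0.0216) and the autophagy receptor gene Nbr1 (-0.51, 0.0349). Transcript levels do not measure inclusions, and no protein data were used here.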

How the data were processed

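RNA of powdered liver was hybridised to 20 Clariom S Mouse arrays. The deposited values are log2 signals. Per the submitters' processing notes, the authors made them by RMA, run in Affymetrix Expression Console; the sources used here give no versions. Array medians were 5.42 to 5.58. On each array 254 to 288 features, none of them a keratin, exceeded 16, for a reason not known. No 2 arrays were identical. The platform annotation gave 1 symbol for 19572 of 22206 features; the brightest feature per symbol was kept, leaving 19505 genes, all tested. Each keratin had 1 feature. limma 3.58.1 in R 4.3.3 was fitted to the 4 group means (empirical Bayes, residual degrees of freedom 16) with Benjamini-Hochberg adjustment over 19505 genes. For the keratins 24 exact permutation tests (6 genes, 4 comparisons) were computed, and those printed are unadjusted. The fit was tested on simulated data. Background was the 95th percentile of receptor gene means per group. Named list genes are up to 3 called genes with the smallest adjusted p per list and age, leaving out genes below background in all groups. Also named are the 4 nearest genes per called keratin, passing over Gm-number and Rik symbols. The keratins, 12 lists and tests were chosen with earlier results of these data known. Groups came from the titles, whose array numbers run in group order, so array order and group cannot be told apart. The number of arrays limits the precision. Same-numbered KO and WT arrays were not paired: their deviations from group means correlated at -0.18 to 0.48.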

Additional observations from a re-analysis of the deposited data

Results flagged for a closer look

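The test of a change in the knockout effect with age passed for Krt18 and, narrowly, for Krt19. For Krt18 the effect at 8 weeks minus that at 4 weeks was -1.502 (limma adjusted p = 0.0208), and for Krt19 it was 2.21 (limma adjusted p = 0.0481). The Krt19 call was lost without any of 15 of the 20 arrays and, without the 4 Cdh17 arrays, the change was 1.29 (adjusted p = 0.188). As the Krt19 mean of WT at 8 weeks was not above background, 2.21 does not give the size of the change.

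Of 24 combinations of keratin and group, 2 held an array far from the other 4 by Dixon's criterion, which chance meets in about 1 of 20 groups. Krt19 was 3.84 in WT replicate 3 at 8 weeks, against 5.23 to 5.63 in the other WT arrays of that age. Krt20 was 6.16 in KO replicate 5 at 8 weeks, against 4.18 to 4.71 in the others, and this array was also the highest of its group in Krt7, Krt19 and Epcam and had a Cdh17 of 6.30.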

How the results depend on the processing

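The count of keratins called at 4 weeks was 3 under every alternative run, and at 8 weeks it was 2 to 4. For the interaction the count of 2 became 1 with values raised to background, with trend and robust moderation and with the replicate number as a block; on leaving out single arrays it was 1 to 3. Under these 3 settings Krt19 lost its interaction call (adjusted p = 0.11, 0.0729 and 0.0677). Raising values to background also ended the Krt8 call at 8 weeks (0.0545), and trend and robust moderation the Krt19 call between ages in KO (0.0556). The replicate block changed no other keratin call. Signs turned only for uncalled differences. Krt19 at 4 weeks was 0.12 without the 3 muscle arrays, 0.23 without the 4 Cdh17 arrays, 0.28 without all 6 and -0.41 to 0.0555 on leaving out single arrays. Krt23 between ages in KO was 0.0188 with values raised to background, 0.24 without the 6 arrays and -0.33 to 0.15 on leaving out single arrays. Between ages in WT, Krt18 was 0.016 with array medians set equal, 0.0078 with quantile normalization repeated, 0.0213 without the 4 or the 6 arrays and -0.18 to 0.19 without single arrays; Krt7 was -0.0007 without the 4 or the 6 arrays and -0.13 to 0.15 without single arrays; and Krt20 was 0.21 without the 4 or the 6 arrays. The causes were not tested. Another feature per symbol could not be tried, since each keratin had 1. Krt20 and Krt23 lie near background, where signals set only bounds.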

Other observations

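Markers of other tissues were counted beside the keratins. For scale, 4.70% of all genes were called higher at 4 weeks and 4.94% at 8 weeks. Of 9 mesothelial genes 0 were called at 4 weeks and 1 was higher at 8 weeks, Gpm6a (8.91 ± 0.96 in livers labelled KO and 6.47 ± 0.46 in WT, SD, n = 5 each, limma adjusted p = 0.001). Of 14 intestinal and stomach genes 0 were called at 4 weeks and 1 was higher at 8 weeks, the trefoil factor gene Tff2 (7.19 ± 1.35 in livers labelled KO and 5.07 ± 0.52 in WT, at least 1.996, limma adjusted p = 0.00494). Of 8 exocrine pancreas genes 1 was higher at 4 weeks, Cpa1 (0.60, at least 0.16, limma adjusted p = 0.0133), and 0 were called at 8 weeks. Of 15 skeletal muscle genes 0 were called at either age.

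Of 13 macrophage genes 4 were higher and 0 lower at 4 weeks, and 7 higher and 0 lower at 8 weeks. Over all genes 4.70% and 4.94% were called higher at these ages. The macrophage medians were 0.34 and 0.81, against 0.00 and -0.04 over all genes. The metalloelastase gene Mmp12 rose by at least 5.97 at 4 weeks (limma adjusted p = 3.6e-07) and at least 4.29 at 8 weeks (8.16e-06). Among 8 genes of O-GlcNAc cycling 2 were lower at 4 weeks, Ogt and the O-GlcNAcase gene Oga (9.98 ± 0.50 in KO and 11.47 ± 0.20 in WT, SD, n = 5 each, limma adjusted p = 1.78e-04). At 8 weeks Gfpt2 was higher (1.13, limma adjusted p = 0.0101) and Uap1 lower (-0.45, 0.0475).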
